A study of Rattus norvegicus with 10 samples.

Results

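Adenosine receptors and the enzymes and transporter that set adenosine levels were followed in muscle beneath the skin of arthritic rats, before and after acupuncture or placebo. The set held 9 genes taken by name, out of 16497 gene symbols on 17221 transcripts in the deposited table: the receptors Adora1, Adora2a, Adora2b and Adora3, the ectonucleotidases Entpd1 and Nt5e, the transporter Slc29a1, and the removing enzymes Adk and Ada. Each had 1 transcript, none of which overlapped a transcript of another symbol. A filter on low values kept 7 of the 9, and left out Adora1 and Adora3.

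Adenosine outside the cell is made largely from released ATP, which Entpd1 shortens to AMP and Nt5e then turns into adenosine. The nucleoside is carried across the membrane by transporters such as Slc29a1, and is cleared by Adk, which phosphorylates it back to AMP, or by Ada, which turns it into inosine. Its 4 receptors couple to G proteins, Adora1 and Adora3 lowering and Adora2a and Adora2b raising cyclic AMP, and Adora2a is known for restraining immune cells. In skeletal muscle, adenosine made by Nt5e is known as a dilator of the vessels.

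All 5 groups, the untreated one included, consisted of female rats of the Wistar strain in which arthritis had been induced with collagen. Age is not given in the sources used here. Tissue of the RA_0 rats was taken before any therapy, that of AP_1h and PLA_1h at 1 h of acupuncture or placebo, and that of AP_34d and PLA_34d at 34 days. Each group had 2 libraries, numbered as replicates, and the titles do not say whether each came from 1 rat. The study's methods describe the acupuncture as a thin needle that was inserted and twirled at points on the lower back and below the knee, and the placebo as an injection of sterile saline into the peritoneum, so the placebo was given at another site than the needling. No healthy rats were in these libraries. The 4 comparisons against RA_0 use the same 2 control libraries.

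The libraries held 5371687 to 8899521 reads, so that 1 CPM (1 count in 1000000 reads, scaled with TMM factors) stood for 4.19 to 10.1 reads, and a count of 3 reads, the limit that a count of 0 allows, was 0.297 to 0.716 CPM. Intervals and limits from reads cover counting error only. Skeletal muscle markers summed to between 126802 and 341885 CPM in every library, while 4 keratinocyte markers of the overlying skin reached at most 6.97 CPM. PLA_34d replicate 1 stood apart: its mean correlation with the other libraries was 0.954, against 0.972 to 0.980 for the others, and its T cell and B cell markers summed to 221 and 193 CPM, against at most 29.6 and 6.02 CPM elsewhere. Markers of slow muscle fibres also differed in level, at 10055 to 19952 CPM in RA_0 and 972 to 1120 CPM in AP_1h, without a call for any marker. Their sums were 1840 to 4173 CPM in PLA_1h, 1889 to 11136 in AP_34d and 1702 to 19882 in PLA_34d. In whole tissue, fewer cells of a type and less RNA per cell cannot be told apart.

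None of the 7 tested genes passed the test for a difference between groups. In limma's test over all 10259 tested transcripts, 0 of 7 passed a Benjamini-Hochberg adjusted p under 0.05 in any of 11 tests, and the smallest adjusted p was 0.698, for Adora2a at AP_1h against RA_0. Calls were also rare among all transcripts: 0.0292% passed for AP_1h against RA_0 and 0 in each of the other comparisons. At an unadjusted p under 0.05 limma counted 1 gene in 1 test, Nt5e between AP_1h and AP_34d. The other tests counted 0 of 7 there, including PLA_34d against PLA_1h (2.96% of all transcripts), the interaction of treatment and time (4.05%) and the test of any difference among the 5 groups (4.98%). Over the same 11 tests edgeR's quasi-likelihood test and limma-voom also gave 0 calls with 1 at unadjusted p. DESeq2 gave 0 calls with 3 at unadjusted p. Of all 10259 transcripts, edgeR and limma-voom called 0 in every test, whereas DESeq2 called 10 to 254. Counts at an unadjusted p under 0.05 were 279 to 937 in edgeR, 209 to 839 in limma-voom and 310 to 1019 in DESeq2.

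Entpd1, which starts the breakdown of ATP and ADP outside the cell, was read at chromosome 1, 245783750 to 245887419 of build rn4. Its levels were 3.10 and 4.31 CPM in RA_0, 6.27 and 1.96 in AP_1h, 4.46 and 2.46 in PLA_1h, 2.93 and 7.47 in AP_34d, and 11.3 and 4.41 in PLA_34d. The highest value was that of PLA_34d replicate 1, and the lowest that of AP_1h replicate 2. By group means the order ran from PLA_1h, RA_0 and AP_1h to AP_34d and PLA_34d, and all neighbouring groups in this order overlapped. Replicates of Entpd1 differed by up to 3.20 times, in AP_1h, and group means by 2.27 times. PLA_34d was above RA_0 in both libraries, with a log2 difference of 0.81 ± 0.58 (SE, 95% interval -0.48 to 2.099, limma adjusted p = 0.914). Without PLA_34d replicate 1, the library with the lymphocyte markers, that difference was 0.21.

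Nt5e, also known as CD73, makes adenosine from AMP at the cell surface (chromosome 8, 93591630 to 93635458). Its levels were 10.7 and 10.8 CPM in RA_0, 9.62 and 5.60 in AP_1h, 13.4 and 10.9 in PLA_1h, 14.1 and 14.9 in AP_34d, and 9.31 and 12.8 in PLA_34d. Both AP_1h libraries lay below both of RA_0 and of PLA_1h, and both AP_34d libraries lay above every library of the other groups. The order of the means was AP_1h (7.61 ± 2.85, SD, n = 2), RA_0 (10.8 ± 0.0753), PLA_34d (11.1 ± 2.46), PLA_1h (12.1 ± 1.77) and AP_34d (14.5 ± 0.619). In this order RA_0 overlapped PLA_34d, and PLA_34d overlapped PLA_1h. Nt5e was the only tested member whose group means differed by more, 1.91 times, than its replicates did at most, 1.72 times in AP_1h. That held for 27.7% of the 10085 tested transcripts above 0 in every library, so 1 of 7 is not above the background.

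**Figure D1:**
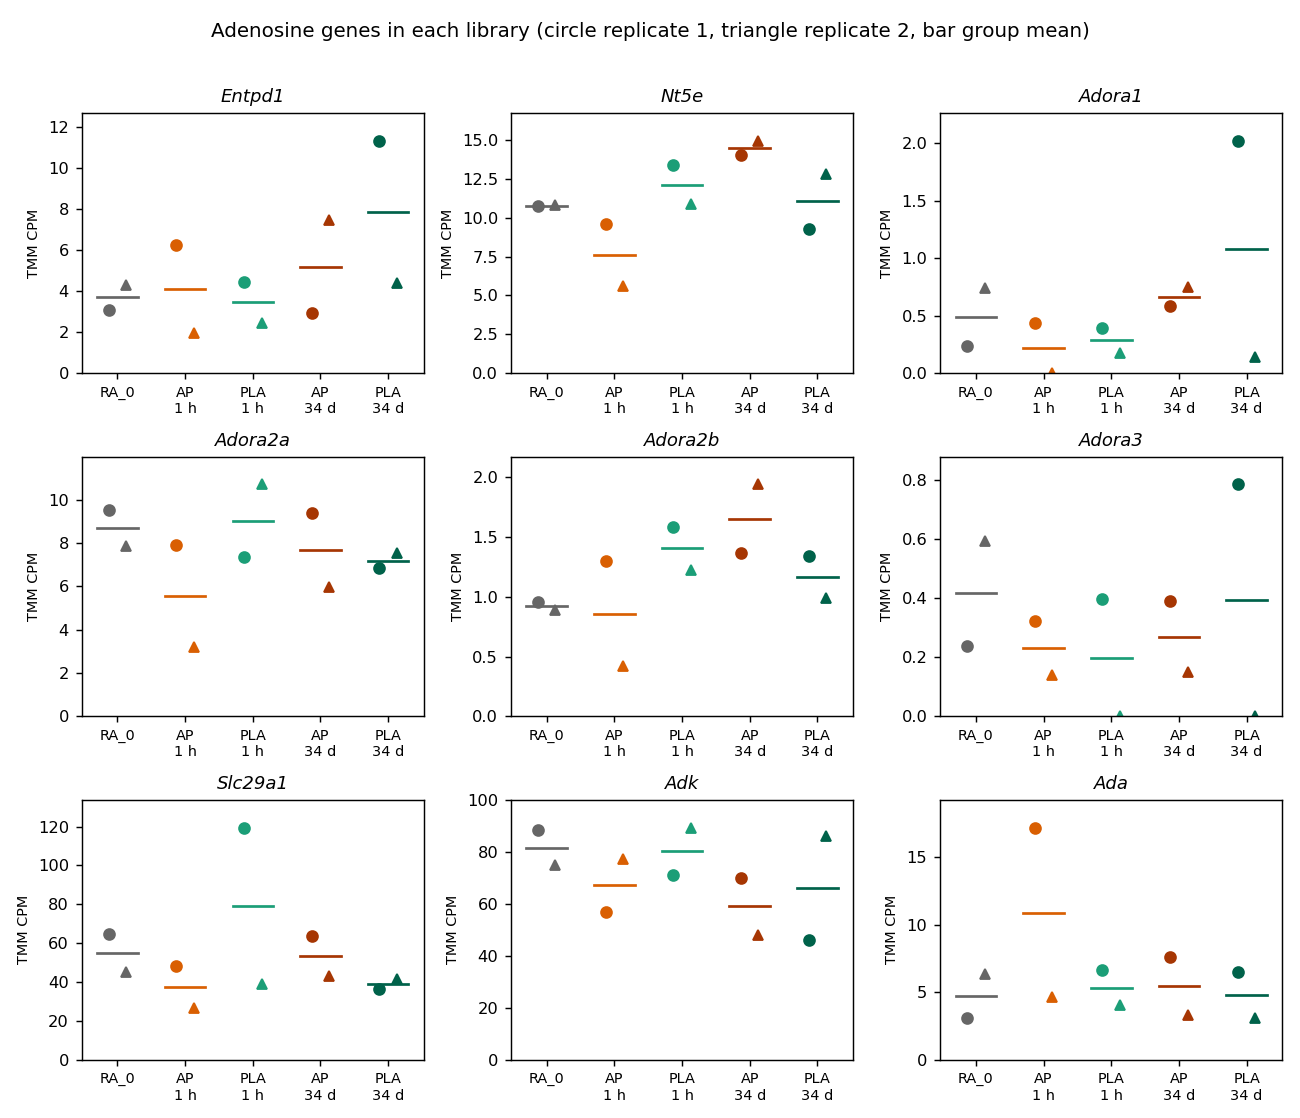
Level of the 9 adenosine genes in TMM-scaled CPM (vertical axes from 0, each gene on its own scale) in the 10 libraries, by group. Circles are replicate 1, triangles replicate 2 and bars group means; Nt5e lies lowest in AP_1h and highest in AP_34d, and single libraries stand out for Ada in AP_1h (17.2 CPM), Slc29a1 in PLA_1h (119 CPM) and Entpd1 in PLA_34d (11.3 CPM).

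The comparison of AP_34d with AP_1h gave for Nt5e a log2 difference of 0.89 ± 0.34 (SE, 95% interval 0.13 to 1.65), with limma's unadjusted p = 0.0258 and adjusted p = 0.888. Among all tested transcripts, 5.35% had an unadjusted p under 0.05 in that comparison, and 1 of the 7 members did. Without AP_1h replicate 2 the difference was 0.54, and without AP_1h replicate 1 it was 1.23. AP_1h minus PLA_1h was -0.64 ± 0.34 (limma adjusted p = 0.9999), -0.30 without AP_1h replicate 2 and -0.99 without AP_1h replicate 1. AP_34d minus PLA_34d was 0.38 ± 0.34 (limma adjusted p = 0.922), 0.17 without PLA_34d replicate 1 and 0.59 without PLA_34d replicate 2. The difference between these 2 values, tested itself in limma as an interaction, was 1.02 ± 0.48 (95% interval -0.05 to 2.09, unadjusted p = 0.0596, adjusted p = 0.9998), and 0.68 without AP_1h replicate 2. A difference in the response of Nt5e to acupuncture between the times was therefore not shown.

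Among the receptors, Adora2a (chromosome 20, 13815719 to 13834131), the receptor that restrains inflammatory cells, was read in every library, with 526 reads in all. Its levels were 9.54 and 7.87 CPM in RA_0, 7.89 and 3.22 in AP_1h, 7.34 and 10.7 in PLA_1h, 9.37 and 5.98 in AP_34d, and 6.84 and 7.53 in PLA_34d. The lowest value was that of AP_1h replicate 2, whereas replicate 1 of that group overlapped RA_0. Group means ran from AP_1h at 5.56 CPM through PLA_34d, AP_34d and RA_0 to PLA_1h at 9.02 CPM, and all neighbouring groups in this order overlapped. AP_1h minus RA_0 was -0.66 ± 0.42 on the log2 scale (95% interval -1.59 to 0.27, limma adjusted p = 0.698). That value was -1.20 without AP_1h replicate 1 and -0.12 without replicate 2.

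Adora2b, the low-affinity receptor for adenosine (chromosome 10, 48421595 to 48437967), was near the detection limit, with 3 to 16 reads in a library and 87 in all. It was measured at 0.954 and 0.891 CPM in RA_0, 1.30 and 0.420 in AP_1h, 1.59 and 1.23 in PLA_1h, 1.37 and 1.94 in AP_34d, and 1.35 and 0.995 in PLA_34d. The RA_0 libraries lay below those of PLA_1h, AP_34d and PLA_34d, and between those of AP_1h. By means the order was AP_1h, RA_0, PLA_34d, PLA_1h and AP_34d, and in it only RA_0 and PLA_34d were neighbours that did not overlap. PLA_1h minus RA_0 was 0.32 ± 0.39 on the log2 scale (95% interval -0.54 to 1.18, limma adjusted p = 0.9997), and 0.21 without PLA_1h replicate 1. The gene met the filter only through PLA_1h and AP_34d, the groups with the highest means, so its comparisons with them are not independent of the filter. The RA_0 group rested on 10 reads (exact Poisson 95% interval 4.80 to 18.4) and AP_34d on 20 reads (12.2 to 30.9), so counting error alone covers much of the range.

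Adora1 (chromosome 13, 47160292 to 47192805) and Adora3 (chromosome 2, 201157782 to 201161425), the receptors that lower cyclic AMP, were under the filter. Adora1 had 42 reads over all libraries, 18 of them in PLA_34d replicate 1. Its levels were 0.239 and 0.743 CPM in RA_0, 0.432 and 0 in AP_1h, 0.397 and 0.175 in PLA_1h, 0.586 and 0.747 in AP_34d, and 2.02 and 0.142 in PLA_34d. Adora3 had 23 reads, at 0.239 and 0.594 CPM in RA_0, 0.324 and 0.140 in AP_1h, 0.397 and 0 in PLA_1h, 0.391 and 0.149 in AP_34d, and 0.785 and 0 in PLA_34d. The groups overlapped for Adora3 in every pair. Of the 10 values, 5 of Adora1 and 7 of Adora3 rested on 3 reads or fewer. A limma fit without the filter called neither gene in any test, and the smallest adjusted p was 0.892. For Adora1 the estimate farthest from 0 was a log2 difference of 0.54 in PLA_34d minus PLA_1h (95% interval -0.41 to 1.48). For Adora3 it was -0.25 in PLA_1h minus RA_0 (95% interval -0.91 to 0.41), on a scale that understates changes at so low a level. The highest value of each was in PLA_34d replicate 1, the library with the lymphocyte markers, whose part in these values was not tested.

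Slc29a1, which lets adenosine pass the membrane in either direction (chromosome 9, 11000054 to 11014914), was read with 3871 reads in all. Its levels were 64.9 and 45.0 CPM in RA_0, 48.4 and 26.7 in AP_1h, 119 and 38.8 in PLA_1h, 63.5 and 43.0 in AP_34d, and 36.6 and 41.5 in PLA_34d. The PLA_1h libraries differed by 3.08 times from each other, more than the 2.11 times between the highest and the lowest group mean. Means ran from AP_1h through PLA_34d, AP_34d and RA_0 to PLA_1h, and of the neighbours in this order only PLA_34d and AP_34d did not overlap. PLA_34d minus PLA_1h was -0.79 ± 0.50 on the log2 scale (95% interval -1.91 to 0.33, limma adjusted p = 0.9985). Without PLA_1h replicate 1 this difference was 0.0064, and without replicate 2 it was -1.59, so that 1 library set it.

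Adk, which returns adenosine to AMP inside the cell (chromosome 15, 3071412 to 3458891), was the member with the most reads, 4877. It was measured at 88.3 and 74.9 CPM in RA_0, 57.0 and 77.4 in AP_1h, 71.1 and 89.3 in PLA_1h, 70.1 and 48.1 in AP_34d, and 46.0 and 86.1 in PLA_34d. Both AP_34d libraries lay below both RA_0 libraries, and all other groups overlapped RA_0. Means ran from 59.1 CPM in AP_34d through PLA_34d, AP_1h and PLA_1h to 81.6 CPM in RA_0, a span of 1.38 times, and replicates of PLA_34d differed by 1.87 times. AP_34d minus RA_0 was -0.48 ± 0.37 on the log2 scale (95% interval -1.29 to 0.34, limma adjusted p = 0.967), -0.21 without AP_34d replicate 2 and -0.75 without AP_34d replicate 1.

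Ada, which deaminates adenosine to inosine and is known for its high level in lymphocytes (chromosome 3, 154636530 to 154660637), had 1 library far above the others. Its levels were 3.10 and 6.39 CPM in RA_0, 17.2 and 4.62 in AP_1h, 6.64 and 4.04 in PLA_1h, 7.62 and 3.29 in AP_34d, and 6.51 and 3.13 in PLA_34d. AP_1h replicate 1 had 159 of the 479 reads of the gene, and without it the 9 other values spanned 3.10 to 7.62 CPM. All groups overlapped in each pair. The difference AP_1h minus RA_0, picked after its values were seen, was 0.88 ± 0.61 on the log2 scale (95% interval -0.48 to 2.24, limma adjusted p = 0.722), 0.03 without AP_1h replicate 1 and 1.72 without AP_1h replicate 2.

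**Figure D2:**
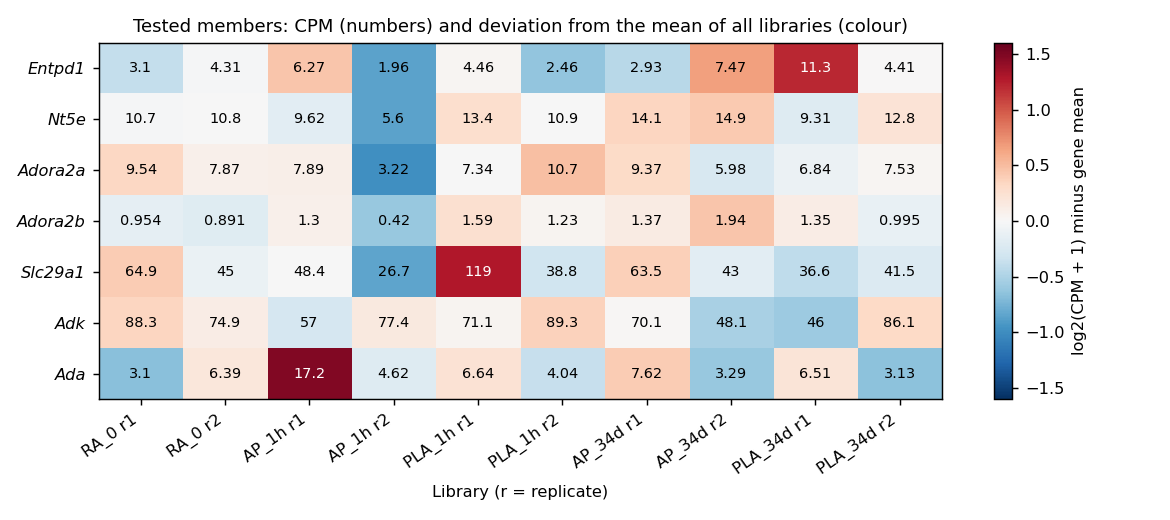
The 7 tested genes (rows) in the 10 libraries (columns): printed numbers are CPM, and colour is log2(CPM + 1) minus the gene's mean over all libraries, blue below and red above. The column of AP_1h replicate 2 holds the lowest value of 5 of the 7 genes.

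The libraries did not contribute evenly to the low values. AP_1h replicate 2 held the lowest value of 5 of the 7 tested members, Entpd1, Nt5e, Adora2a, Adora2b and Slc29a1, and no read of Adora1. Over all tested transcripts it held the lowest value of 13.2%. The other AP_1h library held the lowest value of none of the 7. Markers of endothelium, a cell type known to carry Nt5e and Entpd1, summed to 142 CPM in AP_1h replicate 2, the lowest of all libraries, against 158 to 244 CPM in the others. The next lowest sums were 158 CPM in PLA_1h replicate 1 and 166 CPM in AP_34d replicate 2. Nt5e was at 13.4 and 14.9 CPM there, and Entpd1 at 4.46 and 7.47 CPM. The part of endothelial markers in the low values was not tested.

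Replicates of some members differed more than those of most transcripts. The mean difference between the libraries of a group was 1.00 on the log2 scale for Ada, above that of 93.1% of tested transcripts, 0.93 for Entpd1 (90.9%) and 0.74 for Slc29a1 (80.9%). It was 0.30 for Nt5e and for Adora2b, which exceeded 17.7% and 18.7% of transcripts. The median over all tested transcripts was 0.47. A 95% interval between 2 groups therefore reached 0.76 to either side of the estimate for Nt5e, which is 1.69 times, and 1.36 for Ada, which is 2.57 times.

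**Figure D3:**
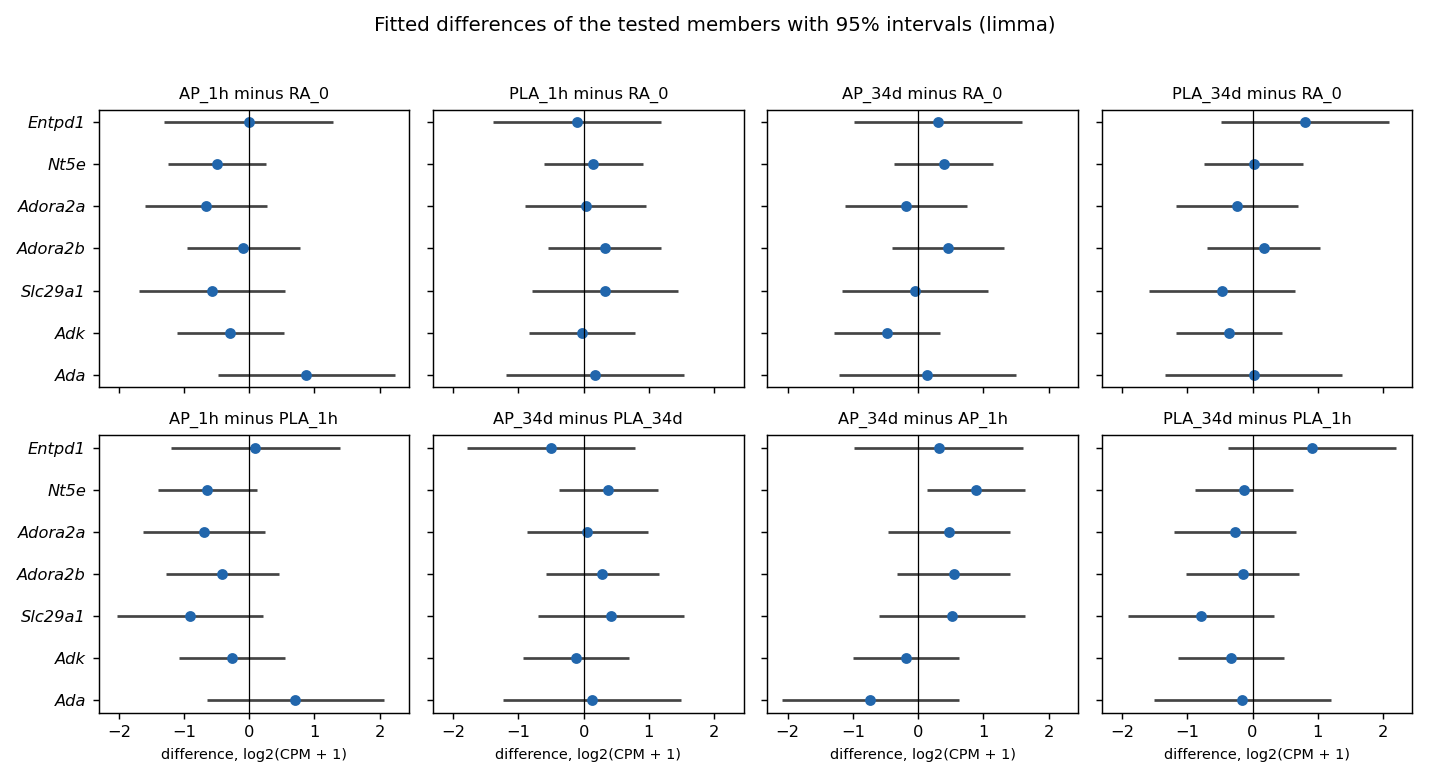
Differences between groups on the log2(CPM + 1) scale (horizontal axes) for the 7 tested genes in 8 comparisons, with points for limma's estimate and lines for its 95% interval. Every interval includes 0 except that of Nt5e in AP_34d minus AP_1h, at 0.13 to 1.65 before adjustment.

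At 1 h after needling, 1 of the 7 members had an estimate above RA_0, Ada, and the median log2 difference of the 7 was -0.29, beside 0.00205 over all tested transcripts. Libraries of AP_1h and RA_0 did not overlap for 1 of the 7, Nt5e, where 41.6% of all tested transcripts did not overlap. At 1 h after placebo, 5 of the 7 estimates were above RA_0, with a median of 0.15, and 2 of the 7, Nt5e and Adora2b, did not overlap, beside 29.4% of all transcripts. Both counts were near or under the background. Adora2b met the filter only through PLA_1h and AP_34d, so its place in the PLA_1h count is not independent of the filter.

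At 34 days the AP_34d libraries did not overlap RA_0 for 3 of the 7, with Nt5e and Adora2b higher and Adk lower, beside 32.3% of all transcripts. For PLA_34d this held for 4 of the 7, Entpd1 and Adora2b higher and Adora2a and Slc29a1 lower, beside 31.0%. None of these differences passed the test, and the medians over the 7 were 0.14 and 0.0161. From 1 h to 34 days, the groups did not overlap for 2 of the 7 under acupuncture, Nt5e and Adora2b, both higher at 34 days, beside 33.1%. Under placebo this held for 0 of the 7, beside 27.2%. The place of Adora2b in the counts with AP_34d is not independent of the filter, which it met only through PLA_1h and AP_34d.

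Set directly against placebo, acupuncture at 1 h gave estimates above PLA_1h for Ada and Entpd1 and below it for the other 5, and libraries did not overlap for Nt5e alone, beside 30.6% of all transcripts. The largest of these estimates, picked after its values were seen, was -0.90 ± 0.50 for Slc29a1 (95% interval -2.02 to 0.22, limma adjusted p = 0.9999). It was -0.10 without PLA_1h replicate 1 and -1.70 without PLA_1h replicate 2, and -0.49 without AP_1h replicate 2. At 34 days 5 of the 7 estimates were above PLA_34d, and Nt5e, Adora2b and Slc29a1 did not overlap, all higher under acupuncture, beside 31.0%. For Adora2b this is again not independent of the filter. Averaged over both times, the member with the smallest p was Adora2a, with a log2 difference of -0.32 ± 0.30 between acupuncture and placebo (95% interval -0.98 to 0.34, limma adjusted p = 0.968). This value was -0.05 without AP_1h replicate 2 and -0.59 without AP_1h replicate 1, -0.19 without PLA_1h replicate 2 and -0.17 without AP_34d replicate 2. The 4 acupuncture and 4 placebo libraries overlapped for all 7, and 2.83% of all transcripts did not overlap. With 2 libraries against 2, an exact two-sided permutation test cannot go below p = 0.333, so no such test was run on single genes.

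**Figure D4:**
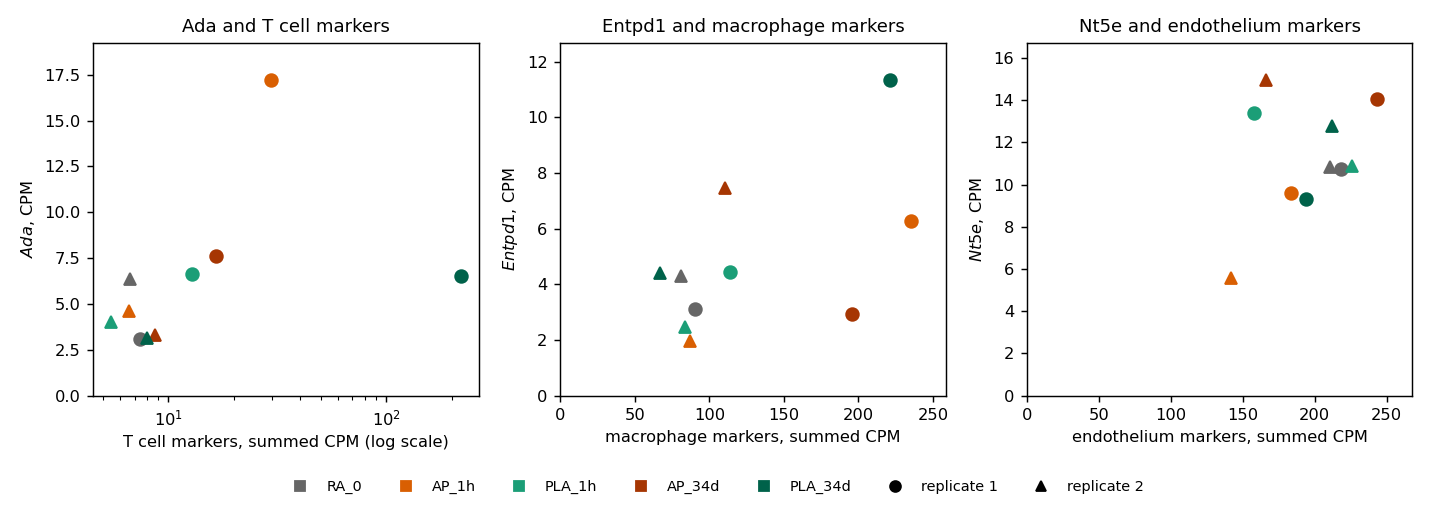
Level of Ada, Entpd1 and Nt5e in CPM (vertical axes from 0) against the summed CPM of T cell markers (log axis), macrophage markers and endothelial markers in the 10 libraries, coloured by group, with circles for replicate 1 and triangles for replicate 2. PLA_34d replicate 1 lies far right in the T cell plot at 221 CPM with Ada at 6.51 CPM, whereas the highest Ada, 17.2 CPM, is at 29.6 CPM of T cell markers.

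Immune markers were high in some libraries with a single high value, and also in libraries where the same member was not high. The 7 T cell markers summed to 29.6 CPM in AP_1h replicate 1, where Ada was highest, and to 5.44 to 16.6 CPM in the other libraries but PLA_34d replicate 1. In PLA_34d replicate 1 these markers were at 221 CPM and Ada was at 6.51 CPM, under the 7.62 CPM of AP_34d replicate 1. The 8 macrophage markers summed to 235 CPM in AP_1h replicate 1, 221 CPM in PLA_34d replicate 1 and 196 CPM in AP_34d replicate 1, and to 67.2 to 114 CPM in the other libraries. Entpd1, which macrophages and endothelium are known to carry, was highest in the second of these at 11.3 CPM, but was at 2.93 CPM in the third. The part of immune cells in these levels was not tested.

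The transcripts whose levels ran most like each tested member across the 10 libraries are given as a description, since all points share the same libraries. For Nt5e they were Cd24 (Pearson r = 0.94) and Atg7 (0.93), and for Entpd1 Notch2 (0.96) and Taok2 (0.95). Adora2a ran most like Chst12 (0.94) and Cdk4 (0.91), whose transcript overlaps that of Tspan31, and Adora2b most like Ap3b1 (0.92) and Hspbap1 (0.90). For Slc29a1 the values were lower, with RGD1304624 (0.87) and Edn1 (0.84). Adk was closest to Tars2 (0.97) and Gcsh (0.96), and Ada to Cnksr3 and C1r (0.92 each).

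The wider purine pathway was read from a list of 72 genes for nucleotide release, breakdown, salvage, transport, nucleotide receptors and the G proteins and cyclases behind the adenosine receptors. Of these, 69 had a row in the table, with 75 transcripts, and 52 transcripts of 51 genes were tested. In 7 comparisons limma called 0 of the 52, as did edgeR's quasi-likelihood test. DESeq2 called 1 of the 52 in each of 2 comparisons. Of all 10259 transcripts it called 39 for AP_1h against PLA_1h and 64 for acupuncture against placebo over both times. At an unadjusted p under 0.05 limma counted 5 of 52 for AP_1h against RA_0, beside 8.89% of all transcripts, 5 for AP_34d (4.77%), 1 for PLA_1h (2.59%) and 5 for PLA_34d (3.20%). Between acupuncture and placebo it counted 3 at 1 h (4.04%), 6 at 34 days (5.47%) and 3 over both times (5.72%).

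Of the enzymes that lead to adenosine, Nt5c1a, the cytosolic nucleotidase of muscle that makes adenosine from AMP, had the smallest p between acupuncture and placebo over both times (chromosome 5, 142509257 to 142524280). It was measured at 10.1 and 22.0 CPM in AP_1h and 14.8 and 23.8 in AP_34d, against 33.5 and 53.4 in PLA_1h, 34.0 and 62.0 in PLA_34d, and 35.1 and 46.3 in RA_0. All 4 acupuncture libraries lay below all 6 others, a pattern whose share over all transcripts was not counted. The log2 difference over both times was -1.34 ± 0.32 (95% interval -2.06 to -0.63), with a limma adjusted p = 0.474, and DESeq2 gave an adjusted p = 0.0327. At 1 h it was -1.44 ± 0.45 (limma adjusted p = 0.821), and -0.91 without AP_1h replicate 1. The other transcript whose acupuncture and placebo libraries did not overlap was that of Enpp1, which cuts ATP to AMP outside the cell, so that 2 of the 52 did so, beside 2.83% of all transcripts.

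Enpp1 (chromosome 1, 21223678 to 21287411) was at 10.3 and 10.99 CPM in RA_0, 3.9999 and 4.20 in AP_1h, 6.54 and 6.49 in PLA_1h, 6.25 and 5.53 in AP_34d, and 7.52 and 7.96 in PLA_34d. Every treated library lay below both RA_0 libraries, and no group overlapped another. In single comparisons with the same 2 RA_0 libraries, 29.4% (PLA_1h) to 41.6% (AP_1h) of all transcripts did not overlap. The share with the whole pattern of Enpp1 was not counted. AP_1h minus RA_0 was -1.19 ± 0.30 (95% interval -1.86 to -0.52, limma adjusted p = 0.241). P2ry2, a receptor for ATP and UTP, stood at 67.5 and 41.0 CPM in RA_0 and 22.6 and 17.9 in AP_1h, with a log2 difference of -1.34 ± 0.37 (95% interval -2.17 to -0.52, limma adjusted p = 0.282). It was at 36.6 and 27.2 CPM in PLA_1h, 46.7 and 53.3 in AP_34d, and 58.1 and 32.4 in PLA_34d. Both PLA_1h libraries thus also lay below RA_0. For P2ry2, AP_1h minus RA_0 was -0.99 without RA_0 replicate 1 and -1.70 without RA_0 replicate 2. Slow fibre markers were also lower in AP_1h, at 972 and 1120 CPM against 10055 and 19952 CPM in RA_0. They were below RA_0 in PLA_1h too, at 4173 and 1840 CPM, and in AP_34d replicate 2 (1889) and PLA_34d replicate 2 (1702). AP_34d replicate 1 (11136) and PLA_34d replicate 1 (19882) lay within the range of RA_0. The part of these markers in the differences was not tested.

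**Figure D5:**
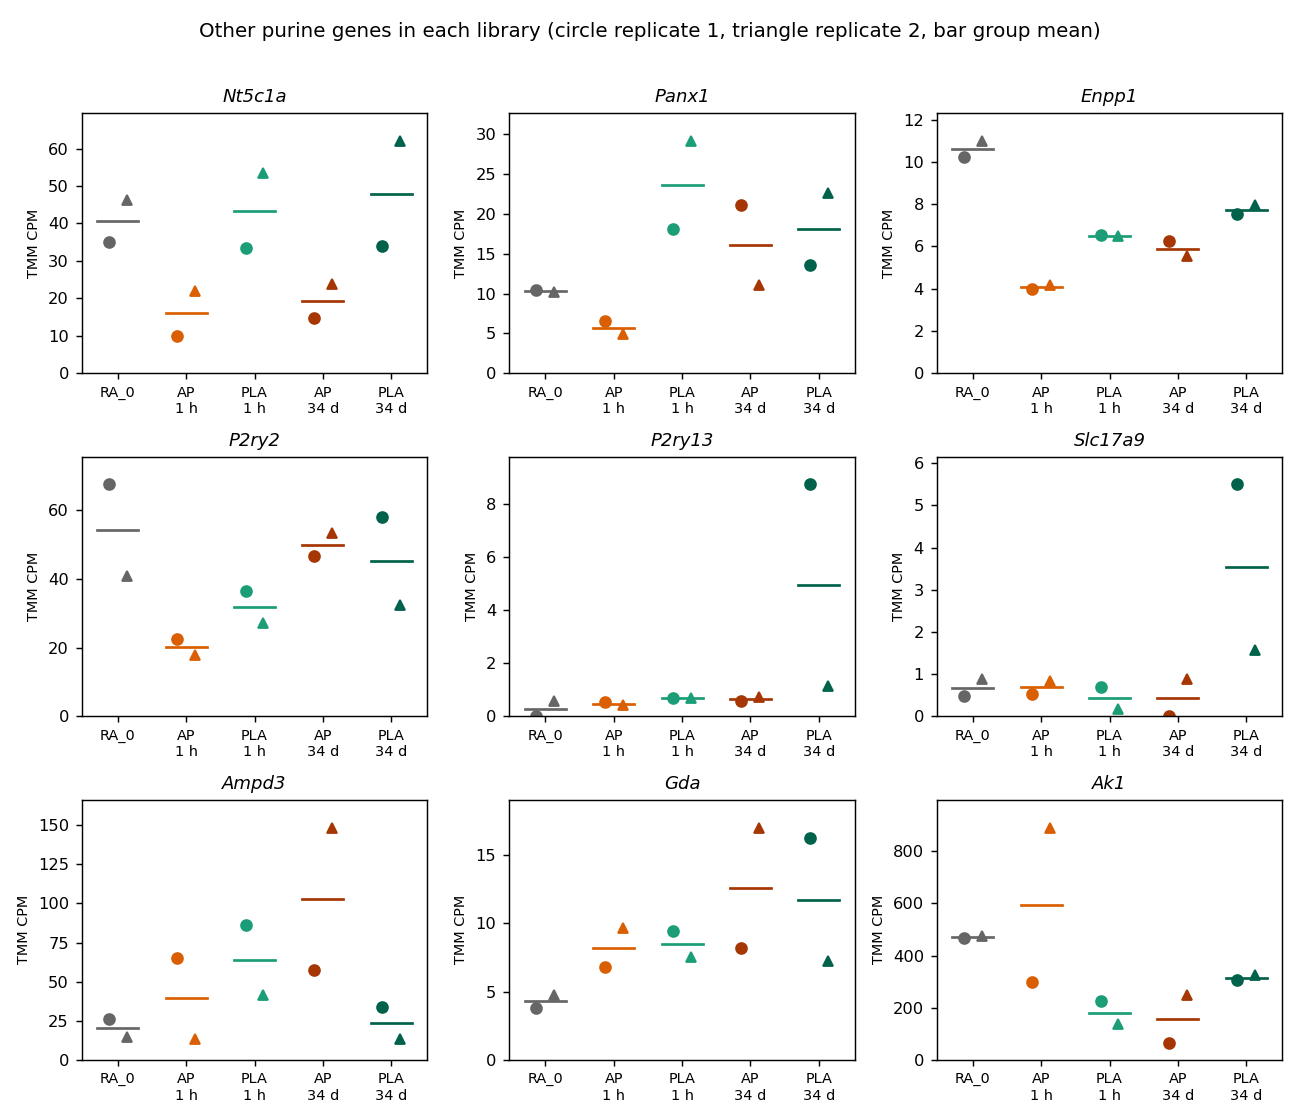
Level in CPM (vertical axes from 0, each gene on its own scale) of the 9 other purine genes named by the smallest p in each comparison, in the 10 libraries by group, with circles for replicate 1, triangles for replicate 2 and bars for group means. Nt5c1a lies at 10.1 to 23.8 CPM in the 4 acupuncture libraries and at 33.5 to 62.0 CPM in the 4 placebo libraries, and P2ry13 and Slc17a9 are highest in PLA_34d replicate 1.

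Panx1, a channel through which cells release ATP, was at 10.5 and 10.2 CPM in RA_0, 6.49 and 4.90 in AP_1h, 18.04 and 29.1 in PLA_1h, 21.1 and 11.1 in AP_34d, and 13.6 and 22.6 in PLA_34d. At 1 h acupuncture and placebo lay on opposite sides of RA_0. Of all transcripts, 41.6% did not overlap between AP_1h and RA_0, and 29.4% between PLA_1h and RA_0. For AP_1h against RA_0, Panx1 did not reach an unadjusted p under 0.05 in limma. AP_1h minus PLA_1h was -1.85 ± 0.41 (95% interval -2.76 to -0.94), with a limma adjusted p = 0.481, while DESeq2 gave an adjusted p = 0.0213. PLA_1h minus RA_0 was 1.07 ± 0.41 (limma adjusted p = 0.9997), and acupuncture minus placebo over both times was -1.02 ± 0.29 (0.605). The former was 0.74 without PLA_1h replicate 2 and 1.41 without PLA_1h replicate 1.

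Ampd3, which deaminates AMP and so draws it away from adenosine, was at 26.0 and 14.7 CPM in RA_0, 65.2 and 13.4 in AP_1h, 86.4 and 41.2 in PLA_1h, 57.4 and 148 in AP_34d, and 33.5 and 13.5 in PLA_34d. Both PLA_1h libraries thus also lay above RA_0, and they overlapped AP_34d. The log2 difference of AP_34d was 2.18 ± 0.74 against RA_0 (limma adjusted p = 0.967) and 2.06 ± 0.74 against PLA_34d (0.846). Gda, a guanine deaminase, was at 3.82 and 4.75 CPM in RA_0, 6.81 and 9.66 in AP_1h, 9.42 and 7.55 in PLA_1h, 8.20 and 17.03 in AP_34d, and 16.3 and 7.25 in PLA_34d. All 8 treated libraries lay above RA_0, a pattern whose share over all transcripts was not counted. Single comparisons with RA_0 did not overlap for 29.4% to 41.6% of all transcripts. PLA_34d minus RA_0 was 1.18 ± 0.45 for Gda (limma adjusted p = 0.914), or 0.65 without PLA_34d replicate 1. The row of Ak1, an adenylate kinase, was at 469 and 475 CPM in RA_0, 299.7 and 891 in AP_1h, 226 and 137 in PLA_1h, 64.6 and 249.9 in AP_34d, and 306 and 324 in PLA_34d. Its log2 difference from RA_0 was -1.88 ± 0.64 in AP_34d (limma adjusted p = 0.967), -0.91 without AP_34d replicate 1 and -2.85 without AP_34d replicate 2, and -1.42 ± 0.64 in PLA_1h (0.9997). That row spans only 1063 bases on chromosome 2, where the current RefSeq table does not place the gene, so whether its reads belong to Ak1 is uncertain.

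P2ry13, an ADP receptor of blood-derived cells, and Slc17a9, which loads ATP into vesicles, had their highest values in the library with the lymphocyte markers. Both met the filter only through PLA_34d, so a comparison of that group is not independent of the filter and its values are a description. P2ry13 was at 8.75 CPM in PLA_34d replicate 1, 1.14 CPM in replicate 2 and 0 to 0.747 CPM elsewhere, and PLA_34d minus RA_0 was 1.85 on the log2 scale, or 0.76 without PLA_34d replicate 1. Slc17a9 was at 5.50 and 1.56 CPM in PLA_34d and at most 0.896 CPM elsewhere, and AP_34d minus PLA_34d was -1.57, or -0.90 without PLA_34d replicate 1.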

How the data were processed

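Muscle RNA of the rats was sequenced as 10 Illumina TruSeq libraries. Per the labels, reads were trimmed with cutadapt 1.2.1, aligned to rn4 with Bowtie2 2.1.0, counted with HTSeq 0.5.4p3 and scaled with edgeR 3.4.2. Whether counting used strand is not given in the sources used here. The authors deposited a signal per transcript and library: CPM with TMM factors, whose values were whole multiples of 1 read (100% within 0.01 reads), so read counts could be recovered.

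The filter asked for 1 CPM or more in each library of some group, which 10259 of 17221 transcripts (59.6%) met. A limma 3.58.1 model (R 4.3.3) with 1 mean per group, eBayes and a mean trend was fitted to log2(CPM + 1) over all 10 libraries, with Benjamini-Hochberg adjustment over all tested transcripts. Fold changes on this scale understate the change of low genes. Samples were grouped by their titles. Coordinates are 1-based, with 1 added to each deposited start.

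Alternatives were 2 other pseudocounts, 2 other filters, 3 other scalings, the compared groups alone, no trend, a replicate block, limma-voom (the study's test), edgeR 4.0.16 quasi-likelihood, DESeq2 1.42.0, sums per symbol and each library left out. The fit was tested on simulated data.

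Fitted values are printed for members with an unadjusted p under 0.05 or, without any, for the smallest p of a comparison, and for the 2 pathway transcripts with the smallest p. Differences outside this rule are named as such. The members and lists were chosen with earlier results of these data known. Figures used Python 3.11.15 and matplotlib 3.10.9.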

Additional observations from a re-analysis of the deposited data

How the results depend on the processing

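The count of members called was 0 in all 263 recomputed tests, under 14 other settings and with each of the 10 libraries left out, and the smallest adjusted p among them was 0.469, for Entpd1 in PLA_34d against RA_0 without PLA_34d replicate 2. The fit of the compared groups alone gave no value for the test of any difference among 5 groups. The filter at a mean of 5 CPM gave no values for genes of low level. Of all 10259 transcripts, DESeq2 called 10 to 254 in a test, and the fit of the compared groups alone called 108 for AP_1h against RA_0. The count of pathway genes called was 0 except in DESeq2. That test called 1 for AP_1h against PLA_1h (Panx1, beside 39 of all 10259 transcripts) and 1 for acupuncture against placebo over both times (Nt5c1a, beside 64). Over the left-out libraries this count ran from 0 to 1 for PLA_34d against RA_0 and from 0 to 1 for AP_34d against PLA_34d, the 1 in both being P2ry13 without PLA_34d replicate 2. P2ry13 met the filter only through PLA_34d, so that call is not independent of the filter. Without replicate 2, PLA_34d was replicate 1 alone, the library with the lymphocyte markers, and calls over all transcripts rose as well. The call is therefore no result about P2ry13. Why the other calls differ was not tested.

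Of 572 recomputed values of the 24 named differences, 568 kept their direction and their side of the threshold. The value of Slc29a1 for PLA_34d against PLA_1h ran from -1.59 without PLA_1h replicate 2 to 0.0064 without PLA_1h replicate 1, which reverses it, and 3 passed the threshold: P2ry13 for PLA_34d against RA_0, with the same dependence on the filter, at 2.95 without PLA_34d replicate 2, Panx1 for AP_1h against PLA_1h at -2.02 and Nt5c1a over both times at -1.37, both in DESeq2. The cause was not tested.

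Whether the replicate numbers pair the samples is not given in the labels. Over 10 pairs of groups the deviations of same-numbered libraries correlated at -0.46 to 0.45, with 4 pairs over 0.1. Values of both signs from 2 libraries a group cannot decide it. With the replicate block, 0 members and 0 pathway genes were called, and Nt5e in AP_34d against AP_1h kept a difference of 0.89 with a limma unadjusted p = 0.0375. The block took the count of calls over all transcripts for AP_1h against RA_0 from 3 to 0.

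With 2 libraries in a group, 95% intervals allowed differences of 1.69 times (Nt5e) to 2.57 times (Ada) around the estimates, and Adora1 and Adora3 were tested only in the fit without the filter. Leaving out a library leaves its group with 1, which is then assumed to vary like the others.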
